A study of Mus musculus with 6 samples.

Results

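The MHC class I antigen presentation genes taken here are 10 named genes of the pathway: the heavy chain genes H2-K1 and H2-D1, the light chain gene B2m, the peptide transporter genes Tap1 and Tap2, the loading factor gene Tapbp, the immunoproteasome subunit genes Psmb8, Psmb9 and Psmb10, and the regulator gene Nlrc5. They were found by matching the Ensembl gene IDs of the count tables to symbols, and all 10 were among the 54109 listed IDs. They were read in 6 cultures of Msc80, a line of mouse Schwann cells, which are the glia of peripheral nerve. The 3 control cultures are labelled Sox10 wt. The other 3, labelled Sox10ko, are described as a cell clone in which CRISPR/Cas9 had inactivated Sox10, a transcription factor of the glial lineage. All 6 were grown in medium with serum, and no cytokine is named in the labels. Whether the Sox10ko cultures came from 1 clone or from several is not given in the sources used here, so the loss of Sox10 and a difference between clones cannot be told apart. The submitters give the cultures as biological replicates.

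Class I molecules carry short peptides from inside the cell to its surface, where CD8 T cells and natural killer cells inspect them. The peptides are cut by the proteasome, pumped into the endoplasmic reticulum by the transporter TAP (Tap1 and Tap2), and loaded onto a heavy chain paired with beta-2 microglobulin (B2m) with the help of tapasin (Tapbp). In cells exposed to interferon gamma, the subunits Psmb8, Psmb9 and Psmb10 replace Psmb5, Psmb6 and Psmb7 in newly built proteasomes, and NLRC5 is the transactivator that works at class I promoters. Schwann cells are known to carry class I molecules and to raise them under inflammatory cytokines.

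The libraries held between 32328618 and 41834431 counted reads. Levels are CPM, counts scaled to a common library size by TMM. Means carry the SD over the 3 libraries of a group (n = 3), and 1 read was worth between 0.0235 and 0.0300 CPM. Sox10 RNA stood at 617 ± 10.5 CPM in control and at 88.7 ± 25.1 CPM in Sox10ko, which was 6.95-fold lower (edgeR adjusted p = 0.000186). The sums over 11 Schwann cell markers ran from 5232 to 5793 CPM in control and from 445 to 660 CPM in Sox10ko, and 9 of the 11 fell. The 11 include Sox10 itself. Ngfr, the highest of them in control, weighs most in the control sums, at 2965 ± 272 CPM in control and 16.4 ± 13.4 CPM in Sox10ko. The sums over 8 fibroblast markers ran from 462 to 587 CPM in control and from 1111 to 2316 CPM in Sox10ko. Of these, 5 were tested, 3 rose (Col1a1, Col1a2 and Pdgfrb) and 0 fell, while Dcn, Lum and Thy1 were under 0.3 CPM in every library. These shifts in cell markers moved with the groups, and their part in the class I results was not tested. In bulk RNA, fewer cells of a type and less RNA per cell cannot be told apart.

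Of the 10 genes, 7 had enough reads to be tested. In Sox10ko, 6 of the 7 rose and 0 fell, where 17.3% of the 15427 tested genes rose, 14.7% fell and 32.0% changed in either direction. The counts of every list below are to be set beside the same shares. The median log2 fold change of the 7 was 1.96, beside 0.02 over all tested genes. In all 7 the Sox10ko libraries lay above the control libraries without overlap, as in 25.5% of all tested genes (49.3% in either direction). Tap1 and Tap2 passed the filter on low counts only through the Sox10ko libraries, so these counts and the median do not describe the 10 genes as a whole. H2-K1, Psmb8 and Psmb9 were too low to test. Without control replicate 3, 4 of the 7 passed the threshold, and the number of genes that changed in the whole table fell from 4939 to 2869.

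Promoter windows from RefSeq (GRCm38.p6, from 250 bases before to 50 bases after the annotated start) were at hand for 8 of the 10 genes. The 5 printed here show what the heavy chain promoters share and what the other promoters hold. Capitals mark the palindrome GGGGATTCCCC (a form of the NF-kappaB site known from class I promoters), the interferon-response core (GAAA, any 2 bases, GAAA), and CCAAT boxes, read on either strand. The sequences run 5′ to 3′ on the strand of the gene.
H2-D1: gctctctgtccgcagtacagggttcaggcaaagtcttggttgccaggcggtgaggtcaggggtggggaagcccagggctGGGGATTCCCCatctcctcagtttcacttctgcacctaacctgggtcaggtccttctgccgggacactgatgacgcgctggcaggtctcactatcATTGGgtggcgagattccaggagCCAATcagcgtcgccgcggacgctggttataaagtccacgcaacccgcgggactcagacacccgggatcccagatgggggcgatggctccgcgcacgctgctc
H2-K1: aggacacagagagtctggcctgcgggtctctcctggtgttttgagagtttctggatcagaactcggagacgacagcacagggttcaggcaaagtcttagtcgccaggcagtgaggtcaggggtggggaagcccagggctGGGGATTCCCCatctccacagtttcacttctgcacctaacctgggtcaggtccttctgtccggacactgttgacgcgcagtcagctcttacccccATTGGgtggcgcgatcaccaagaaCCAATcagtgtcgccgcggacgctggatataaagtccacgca
B2m: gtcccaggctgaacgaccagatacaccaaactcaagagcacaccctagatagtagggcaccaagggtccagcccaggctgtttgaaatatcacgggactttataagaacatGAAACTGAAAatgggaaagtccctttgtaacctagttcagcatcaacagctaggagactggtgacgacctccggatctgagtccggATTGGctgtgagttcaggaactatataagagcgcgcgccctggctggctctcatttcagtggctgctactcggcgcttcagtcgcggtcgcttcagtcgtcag
Tapbp: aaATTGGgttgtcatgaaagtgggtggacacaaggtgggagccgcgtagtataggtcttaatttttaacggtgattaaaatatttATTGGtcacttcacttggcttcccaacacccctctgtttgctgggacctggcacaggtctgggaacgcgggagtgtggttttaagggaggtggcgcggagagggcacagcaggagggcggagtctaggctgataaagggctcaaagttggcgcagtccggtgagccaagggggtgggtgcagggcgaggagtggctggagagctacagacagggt
Tap1: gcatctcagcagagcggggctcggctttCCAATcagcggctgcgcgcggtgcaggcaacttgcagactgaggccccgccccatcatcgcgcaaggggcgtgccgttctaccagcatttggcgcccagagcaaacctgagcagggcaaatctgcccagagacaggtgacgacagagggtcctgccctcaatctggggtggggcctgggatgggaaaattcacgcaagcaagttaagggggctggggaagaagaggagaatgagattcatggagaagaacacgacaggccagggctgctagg

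The windows lie at chr17:35262844-35263143 (H2-D1, plus strand), chr17:34000298-34000597 (H2-K1, minus strand), chr2:122147437-122147736 (B2m, plus strand), chr17:33919228-33919527 (Tapbp, plus strand) and chr17:34187306-34187605 (Tap1, plus strand). The RefSeq starts of Tapbp and H2-D1 lie well inside the longer GENCODE gene models. The CCAAT nearest the start was 53 bases before it in H2-D1 and 8 bases after it in H2-K1. Distances from the start are thus not alike between these windows. The H2-D1 and H2-K1 windows both held the palindrome, 171 and 111 bases before the annotated start, and among all 32851 RefSeq windows of this length it stood in 10 (0.0304%). It was searched for only after the windows had been seen. Aligned on it without gaps, the H2-D1 and H2-K1 windows had the same base at 176 of 240 positions (73.3%). An exact match to the interferon-response core stood in the B2m window alone among the 8, at 139 bases before the start, and in 3.44% of all windows. Near matches were not counted. The H2-D1 and H2-K1 windows both hold tttcacttc after the palindrome, which on the other strand falls a base short of this core. CCAAT stood in 6 of the 8 (B2m, Tapbp, H2-K1, Psmb9, Tap1 and H2-D1) and in 37.4% of all windows. The interferon gamma motif TTCNNNGAA stood in Psmb8 alone (8.30% of all windows), the general NF-kappaB form (GGG, any 5 bases, CC), which overlaps the palindrome, in 5 of the 8 (50.8% of all) and the SOX core ACAANG in B2m and Tapbp (41.2% of all). Tap1 and Psmb9 face away from each other, and 275 bases of their windows are the same genomic bases on opposite strands. A match is a description of letters, not a bound site.

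The heavy chain genes H2-D1 and H2-K1 lie on chromosome 17, on either side of Tap1 and Tap2. H2-D1 (ENSMUSG00000073411, chr17:35262730-35267499 in GRCm38, with up to 8 exons) encodes the peptide-binding chain of the D molecule. It stood at 13.9, 10.3 and 11 CPM in the control libraries and at 33.0, 34.8 and 69.6 CPM in the Sox10ko libraries, in the order of the replicate numbers. Every Sox10ko library was above every control library, and Sox10ko replicate 3 was the highest. The rise was 3.89-fold, from 11.8 ± 1.91 to 45.8 ± 20.6 CPM (log2 fold change 1.96 ± 0.31 SE, edgeR adjusted p = 0.00339).

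H2-K1 (ENSMUSG00000061232, chr17:33996017-34000347), which encodes the K molecule, was almost without reads. Its counts were 1, 2 and 0 reads in the control libraries and 0, 1 and 5 reads in the Sox10ko libraries, at most 0.125 CPM. The groups overlapped, and the ratio of the pooled levels, Sox10ko over control, was 2.01 with an exact (Clopper-Pearson) 95% interval from 0.430 to 12.4 that covers counting error only. Sox10ko replicate 3 held 5 of its 6 Sox10ko reads, and without that library the ratio was 0.513 (exact 95% interval 0.00977 to 6.39), on the other side of 1. Without control replicate 2 it was 4.02. The reads that matched these genes depend on the MHC haplotype of the cells. The sources used here do not name the strain behind Msc80. The reference genome is that of C57BL/6J, and a loss of H2-K1 reads from another allele was not tested. Of the 50-base stretches in H2-K1 transcripts 9.63% also occur in other genes, and 12.8% of those in H2-D1, which limits how surely reads can be given to either.

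B2m (ENSMUSG00000060802, chr2:122147686-122153083, 4 exons) encodes the light chain that all classical class I molecules need. It stood at 410, 402 and 447 CPM in control and at 508, 483 and 518 CPM in Sox10ko. All 3 Sox10ko libraries were above all control libraries, by a small margin. The 1.2-fold difference, from 420 ± 24.1 to 503 ± 17.7 CPM, did not pass the threshold (log2 fold change 0.26 ± 0.09 SE, edgeR adjusted p = 0.0667). It passed with library size alone as the scaling (edgeR adjusted p = 0.0340), with genes of at least 5 CPM alone (edgeR adjusted p = 0.0341) and in DESeq2 (adjusted p = 0.0206).

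**Figure D1:**
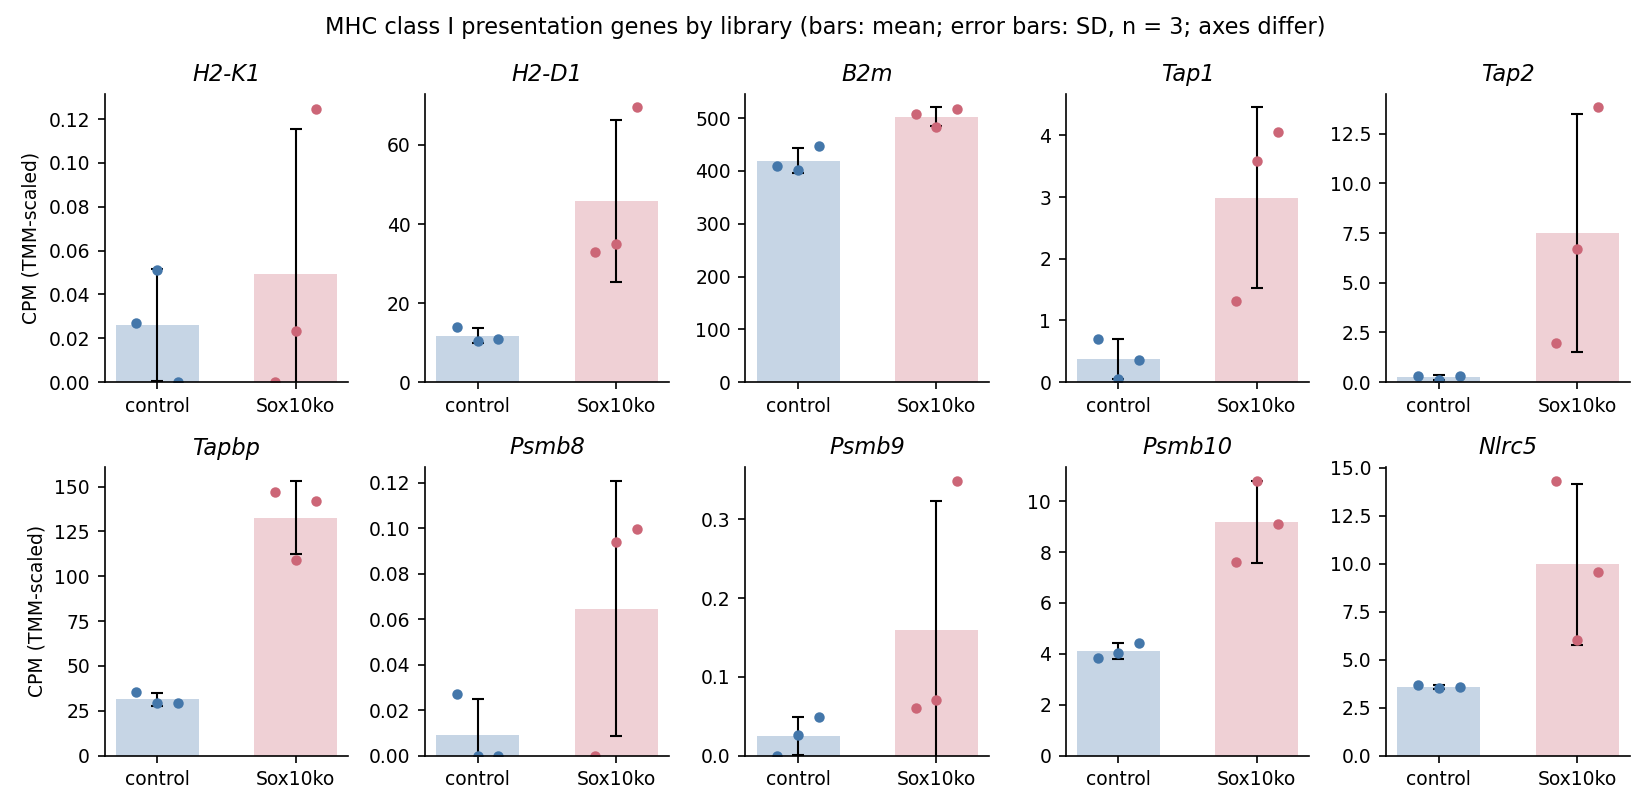
TMM-scaled CPM of the 10 genes in each library, as points, with bars for the group mean and error bars for the SD (n = 3); each panel has its own axis from 0. H2-D1, Tapbp, Psmb10 and Nlrc5 are higher in every Sox10ko library, Tap1 and Tap2 are near 0 in control and spread widely in Sox10ko, B2m differs by 1.2-fold, and H2-K1, Psmb8 and Psmb9 reach at most 0.349 CPM.

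Tap1 and Tap2 encode both subunits of the peptide transporter and lie side by side on chromosome 17 with Psmb8 and Psmb9 between and beside them. Tap2 (ENSMUSG00000024339, chr17:34203527-34216321) stood at 0.325, 0.103 and 0.293 CPM in control, or 12, 4 and 12 reads, and at 1.98, 6.69 and 13.8 CPM in Sox10ko. The lowest Sox10ko library was above the highest control library, and the Sox10ko libraries differed severalfold among themselves. Tap2 rose 31.2-fold (log2 fold change 4.95 ± 0.80 SE, edgeR adjusted p = 0.00387), or 17.8-fold without Sox10ko replicate 3. Tap1 (ENSMUSG00000037321, chr17:34187553-34197225) stood at 0.705, 0.0512 and 0.366 CPM in control, or 26, 2 and 15 reads, and at 1.32, 3.59 and 4.06 CPM in Sox10ko. The groups did not overlap, and Sox10ko replicate 1 was again the lowest of its group. Tap1 rose 7.99-fold (log2 fold change 3.00 ± 0.77 SE, edgeR adjusted p = 0.0229). With control replicate 3 left out Tap1 no longer passed (edgeR adjusted p = 0.0932), nor with Sox10ko replicate 3 left out (edgeR adjusted p = 0.0523), and the fold was 13.9 without control replicate 1. Per kilobase of exon, there were 1.58 ± 1.17 Tap2 reads for each Tap1 read in control and 3.27 ± 1.47 in Sox10ko. These ratios overlapped between the groups.

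Tapbp (ENSMUSG00000024308, chr17:33915899-33929292, up to 8 exons) encodes tapasin, which bridges the transporter and the empty heavy chain. It stood at 35.4, 29.5 and 29.2 CPM in control and at 147, 109 and 142 CPM in Sox10ko, so the groups were far apart. Tapbp rose 4.23-fold, from 31.4 ± 3.50 to 133 ± 20.6 CPM (log2 fold change 2.08 ± 0.15 SE, edgeR adjusted p = 0.000179), and had the lowest adjusted p of the 7 tested genes. It shares 904 exonic bases with Gm19412 on the opposite strand, a gene with 4 control reads and 9 Sox10ko reads, and 149 with Zbtb22 on the same strand.

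Psmb10 (ENSMUSG00000031897, chr8:105935735-105938444) encodes the immunoproteasome subunit with trypsin-like activity. It stood at 3.85, 4.05 and 4.44 CPM in control and at 7.61, 10.8 and 9.12 CPM in Sox10ko, with no overlap. It rose 2.23-fold (log2 fold change 1.16 ± 0.19 SE, edgeR adjusted p = 0.00426). The other immunosubunits were close to absent. Psmb8 (ENSMUSG00000024338, chr17:34197721-34201454) had 1 read in the control libraries together and 0, 4 and 4 reads in the Sox10ko libraries. The ratio of the pooled Psmb8 levels was 8.05, with an exact 95% interval from 1.08 to 357. This interval and those below cover counting error only. Psmb9 (ENSMUSG00000096727, chr17:34181987-34187764) had 0, 1 and 2 reads in control and 2, 3 and 14 reads in Sox10ko, with a pooled ratio of 6.38 and an exact 95% interval from 1.88 to 33.6. Without Sox10ko replicate 3, which held 14 of the Psmb9 reads, the ratio was 2.56 (exact 95% interval 0.499 to 16.5), and without control replicate 3 it was 12.4. For Psmb8 the interval reached below 1 without either of control replicates 2 and 3 or of Sox10ko replicates 2 and 3 (lowest bound 0.609). Of the exonic bases of Psmb9, 212 lie opposite Tap1 exons, so reads of the neighbours cannot be told apart there unless strand was used in the counting. Fitted without the filter on low counts, neither passed (edgeR adjusted p = 0.30 for Psmb8 and 0.134 for Psmb9), and neither did H2-K1 (edgeR adjusted p = 0.697).

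The constitutive counterparts Psmb5, Psmb6 and Psmb7 did not pass the test (edgeR adjusted p = 0.206, 0.331 and 0.745). Their means were 28.4 ± 2.65 and 33.6 ± 4.44 CPM for Psmb5, 101 ± 3.86 and 92.2 ± 6.51 CPM for Psmb6, and 69.1 ± 6.84 and 71.6 ± 3.15 CPM for Psmb7, in control and Sox10ko. Within each library, reads per kilobase of Psmb10 over those of Psmb7 came to 0.116, 0.127 and 0.116 in control and to 0.205, 0.318 and 0.254 in Sox10ko. The Sox10ko ratios were all above the control ratios, 2.13-fold on average (log2 difference 1.09, exact two-sided permutation p = 0.1, the smallest that 3 against 3 allows). Psmb8 stayed at or under 0.0826% of Psmb5 and Psmb9 at or under 0.182% of Psmb6 in every library. These 2 ratios were not tested, since libraries at 0 reads have no log ratio.

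**Figure D2:**
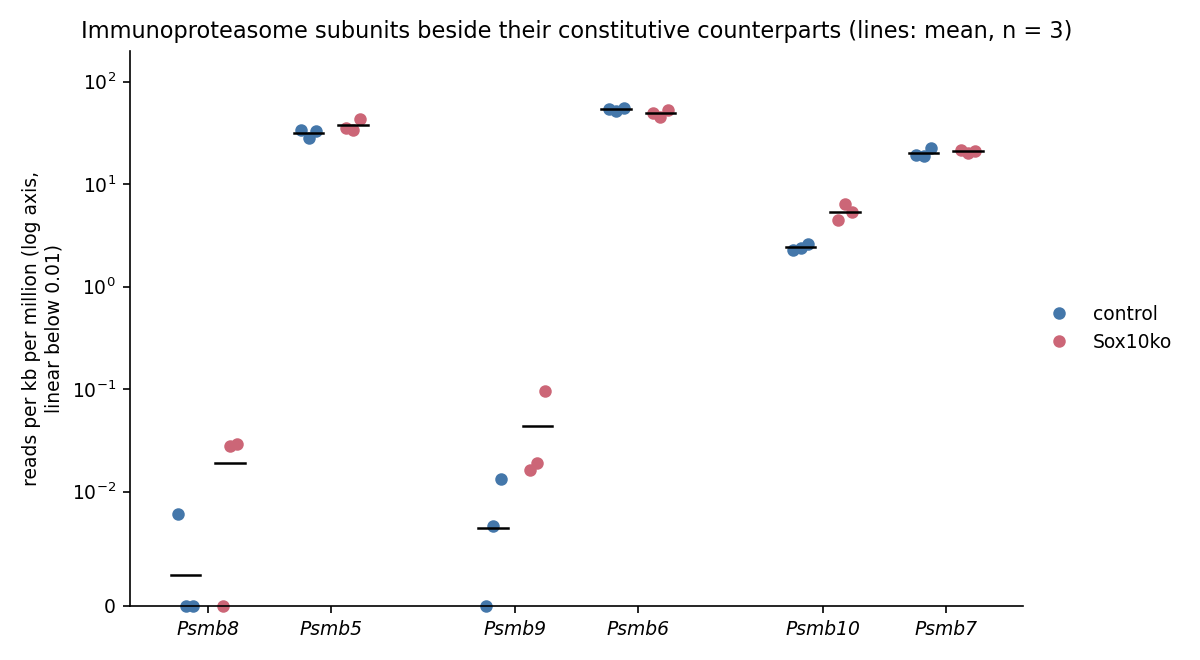
CPM per kilobase of exon of the 3 immunoproteasome subunits beside the constitutive subunits they replace, 1 point per library and a line for the mean (n = 3), on an axis that is logarithmic above 0.01 and linear below. Psmb10 moves up toward Psmb7 in Sox10ko, while Psmb8 and Psmb9 lie orders of magnitude below Psmb5 and Psmb6 in both groups.

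Nlrc5 (ENSMUSG00000074151, chr8:94434356-94527272, up to 53 exons), the class I transactivator, stood at 3.69, 3.51 and 3.57 CPM in control and at 14.3, 6.01 and 9.54 CPM in Sox10ko. The control libraries were nearly equal, and the Sox10ko libraries all lay above them with a wide spread. Nlrc5 rose 2.78-fold (log2 fold change 1.47 ± 0.31 SE, edgeR adjusted p = 0.0113), and control replicate 3 was needed for the call (edgeR adjusted p = 0.0552 when it was left out). The order of the Sox10ko libraries differed between the genes. Replicate 1 was the highest for Nlrc5 and the lowest for Tap1, Tap2 and H2-D1.

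Per kilobase of exon, the 10 genes covered a wide range of levels. The length used was that of all annotated exons of a gene together, such as 860 bases for B2m and 3660 for Psmb9. Levels and ratios set between genes therefore depend partly on the annotation. In control the means were 488 ± 28.0 CPM per kilobase for B2m, 8.65 ± 0.964 for Tapbp, 4.56 ± 0.742 for H2-D1, 2.41 ± 0.177 for Psmb10 and 0.422 ± 0.0107 for Nlrc5. Tap1 (0.0683 ± 0.0597) and Tap2 (0.0636 ± 0.0319) followed and did not differ beyond their spread, and H2-K1, Psmb9 and Psmb8 were each under 0.01. In Sox10ko the order was B2m (585 ± 20.6), Tapbp (36.6 ± 5.67), H2-D1 (17.8 ± 7.98), Psmb10 (5.38 ± 0.935), Tap2 (1.98 ± 1.58), Nlrc5 (1.17 ± 0.491) and Tap1 (0.546 ± 0.268). The libraries of Tap2, Nlrc5 and Tap1 overlapped there, so the last 3 were not separated beyond their spread.

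B2m RNA set against the summed RNA of heavy chain genes differed between the groups. Summed over 18 heavy chain genes (H2-K1, H2-D1 and 16 others), heavy chain RNA came to 15.3 ± 2.35 CPM per kilobase in control and 49.9 ± 13.3 in Sox10ko. B2m over that sum was 27.1, 36.2 and 33.7 in control and 16.3, 11.2 and 9.56 in Sox10ko. The ratio was lower in all 3 Sox10ko libraries than in any control library, and this difference was not tested. H2-T22 made up between 48.8% and 61.4% of the sum and H2-D1 between 26.8% and 42.8%. The sum leaves out class I-like genes such as Fcgrt, Hfe and Mr1. The sum also rests on reads of H2-T22 and H2-D1 whose assignment is uncertain. Of the 50-base stretches of H2-T22 34.5% occur in other genes, as do 12.8% of those of H2-D1.

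**Figure D3:**
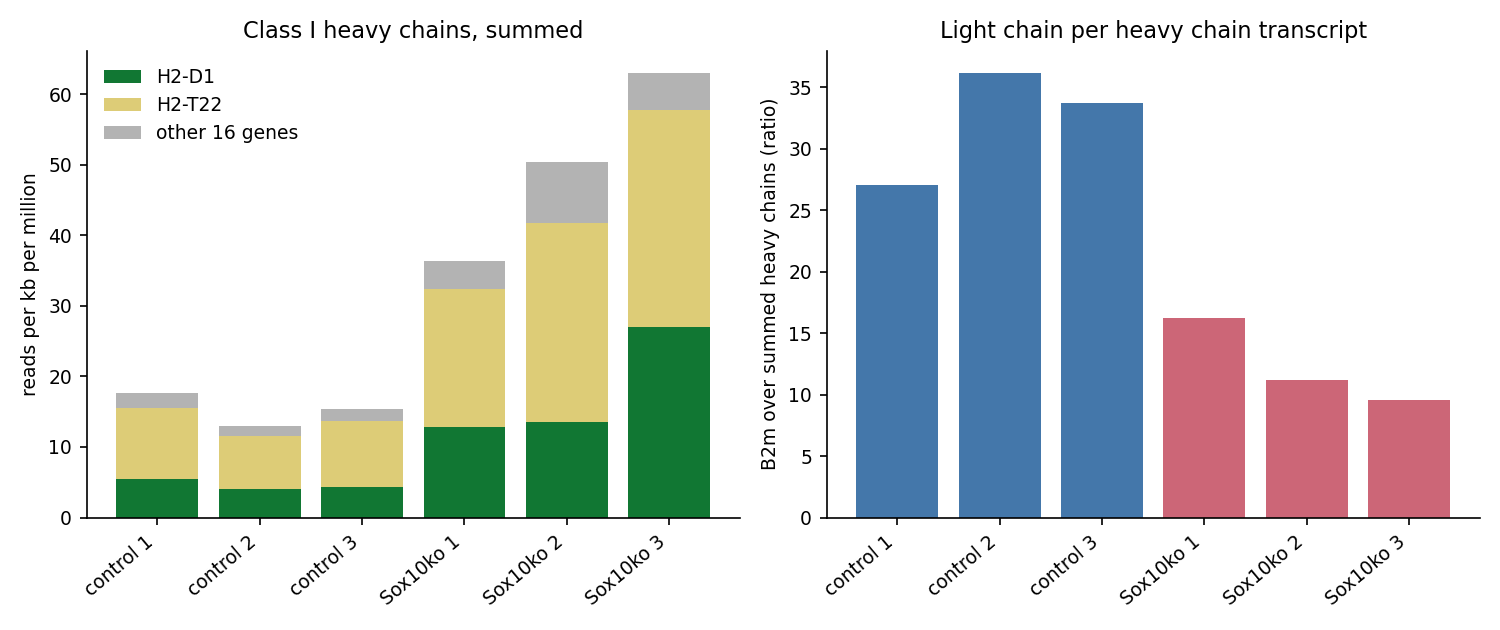
Left, CPM per kilobase of 18 class I heavy chain genes in each library, stacked as H2-D1, H2-T22 and the other 16 genes; right, B2m divided by that sum. The stacks are taller in Sox10ko (36.3 to 63.0) than in control (12.9 to 17.6), and the ratio is lower.

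Of the 16 other class I heavy chain genes, 4 could be tested, 3 rose and 0 fell, and 7 had no read in any library. H2-T23 passed the filter on low counts only through the Sox10ko libraries, so the count does not describe the list as a whole. H2-T22, a non-classical gene of the T region, stood at 34.4, 26.0 and 32.3 CPM in control and at 66.8, 96.2 and 105 CPM in Sox10ko, and rose 2.89-fold (edgeR adjusted p = 0.00134). Of its 50-base stretches 34.5% also occur in other genes, most in H2-T10, as do 21.8% of those in H2-Q4 and 13.6% of those in H2-T23, most in H2-K1. The reads given to these 3 genes are uncertain, the more so as the haplotype of the cells is not known here. H2-T23, which encodes Qa-1, the ligand of the inhibitory receptor NKG2A, rose 4.29-fold from 0.163 ± 0.0828 to 0.70 ± 0.246 CPM (edgeR adjusted p = 0.0147). H2-Q4 rose 3.98-fold, from 1.57 ± 1.05 to 6.27 ± 1.34 CPM (edgeR adjusted p = 0.0267). H2-T23 no longer passed with control replicate 1 left out (edgeR adjusted p = 0.0652) or 3 (0.0704), and H2-Q4 no longer passed without control replicate 3 (0.0926) or Sox10ko replicate 2 (0.0596) or 3 (0.0548). H2-T24 stood at 2.12 ± 0.0598 and 4.03 ± 1.73 CPM (edgeR adjusted p = 0.0871, or 0.00627 without Sox10ko replicate 1). H2-M3, which presents formylated peptides, had 0 reads in all control libraries. In Sox10ko its level was 1.02, 4.65 and 0 CPM.

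Class I-like genes, whose products share the fold but serve other ends, held 8 tested genes of the 14 that were matched, and 4 rose and 0 fell (median log2 fold change 1.02). Mr1, which presents vitamin B metabolites to MAIT cells, stood at 1.19, 1.46 and 1.29 CPM in control and at 17.5, 7.18 and 14.6 CPM in Sox10ko, a rise of 9.95-fold (edgeR adjusted p = 0.000725). Fcgrt, the heavy chain of the neonatal Fc receptor, rose 7.26-fold from 2.81 ± 0.382 to 20.4 ± 12.1 CPM (edgeR adjusted p = 0.00257), or 4.78-fold without Sox10ko replicate 1. Hfe, which acts in iron sensing, rose 4.80-fold from 2.84 ± 0.424 to 13.7 ± 1.93 CPM (edgeR adjusted p = 0.000332). Mill2 rose 2.99-fold from 2.24 ± 0.793 to 6.68 ± 0.975 CPM (edgeR adjusted p = 0.00838). These 4 lie outside chromosome 17.

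Most of the general loading machinery did not pass the test. Of 8 partners in loading and trimming, 1 rose and 0 fell (median log2 fold change -0.05). That gene, Erap1, is the aminopeptidase that trims peptides to their final length. It stood at 26.6, 26.5 and 27.3 CPM in control and at 57.5, 54.5 and 47.4 CPM in Sox10ko, and rose 1.98-fold (edgeR adjusted p = 0.000714). The chaperone gene Calr stood at 728 ± 40.5 and 654 ± 34.6 CPM (edgeR adjusted p = 0.265), and Sec61a1 (edgeR adjusted p = 0.162) and Bcap31 (edgeR adjusted p = 0.380) did not pass either.

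In the list of proteasome activators and assembly factors, 2 of 9 rose and 2 fell (median log2 fold change -0.23). Over all tested genes 17.3% rose and 14.7% fell. Psme1 and Psme2 encode the subunits of PA28, the interferon-inducible activator. Psme1 stood at 14.9, 20.1 and 16 CPM in control and at 29.3, 25.7 and 30.8 CPM in Sox10ko, 1.68-fold higher (edgeR adjusted p = 0.00873). Psme2 was also 1.68-fold higher, at 31.5 ± 3.41 and 53.0 ± 9.34 CPM (edgeR adjusted p = 0.00971). With control replicate 3 left out neither passed (edgeR adjusted p = 0.0530 and 0.0559). Psme4, which encodes the activator PA200, fell 1.43-fold (edgeR adjusted p = 0.0152), as did the assembly chaperone Psmg3 by the same fold (edgeR adjusted p = 0.0267). Without control replicate 3 the adjusted p was 0.0564 for Psme4 and 0.0954 for Psmg3, and that of Psmg3 was also above the threshold without control replicate 1 (0.0753) or 2 (0.0607) or Sox10ko replicate 3 (0.0526).

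Among 14 genes of the constitutive core proteasome, 1 rose and 3 fell (median log2 fold change -0.10). Psma7 fell 1.62-fold from 154 ± 6.43 to 95.5 ± 4.89 CPM (edgeR adjusted p = 0.00143), and Psma4 rose 1.44-fold from 113 ± 10.1 to 163 ± 15.6 CPM (edgeR adjusted p = 0.0116). Psma1 fell 1.29-fold (edgeR adjusted p = 0.0196, or 0.0764 without control replicate 3) and Psma5 1.25-fold (edgeR adjusted p = 0.0400, and from 0.0531 to 0.129 when any of the 6 libraries was left out). Of 8 cytosolic peptidases, which cut peptides before transport, 1 rose (Npepps, 1.36-fold, edgeR adjusted p = 0.020) and 1 fell (Blmh, 1.28-fold, edgeR adjusted p = 0.0445). Neither passed with control replicate 1 left out (edgeR adjusted p = 0.0899 and 0.117) or 3 (0.104 and 0.121), and Blmh also without Sox10ko replicate 1 (0.0709) or 2 (0.0978).

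**Figure D4:**
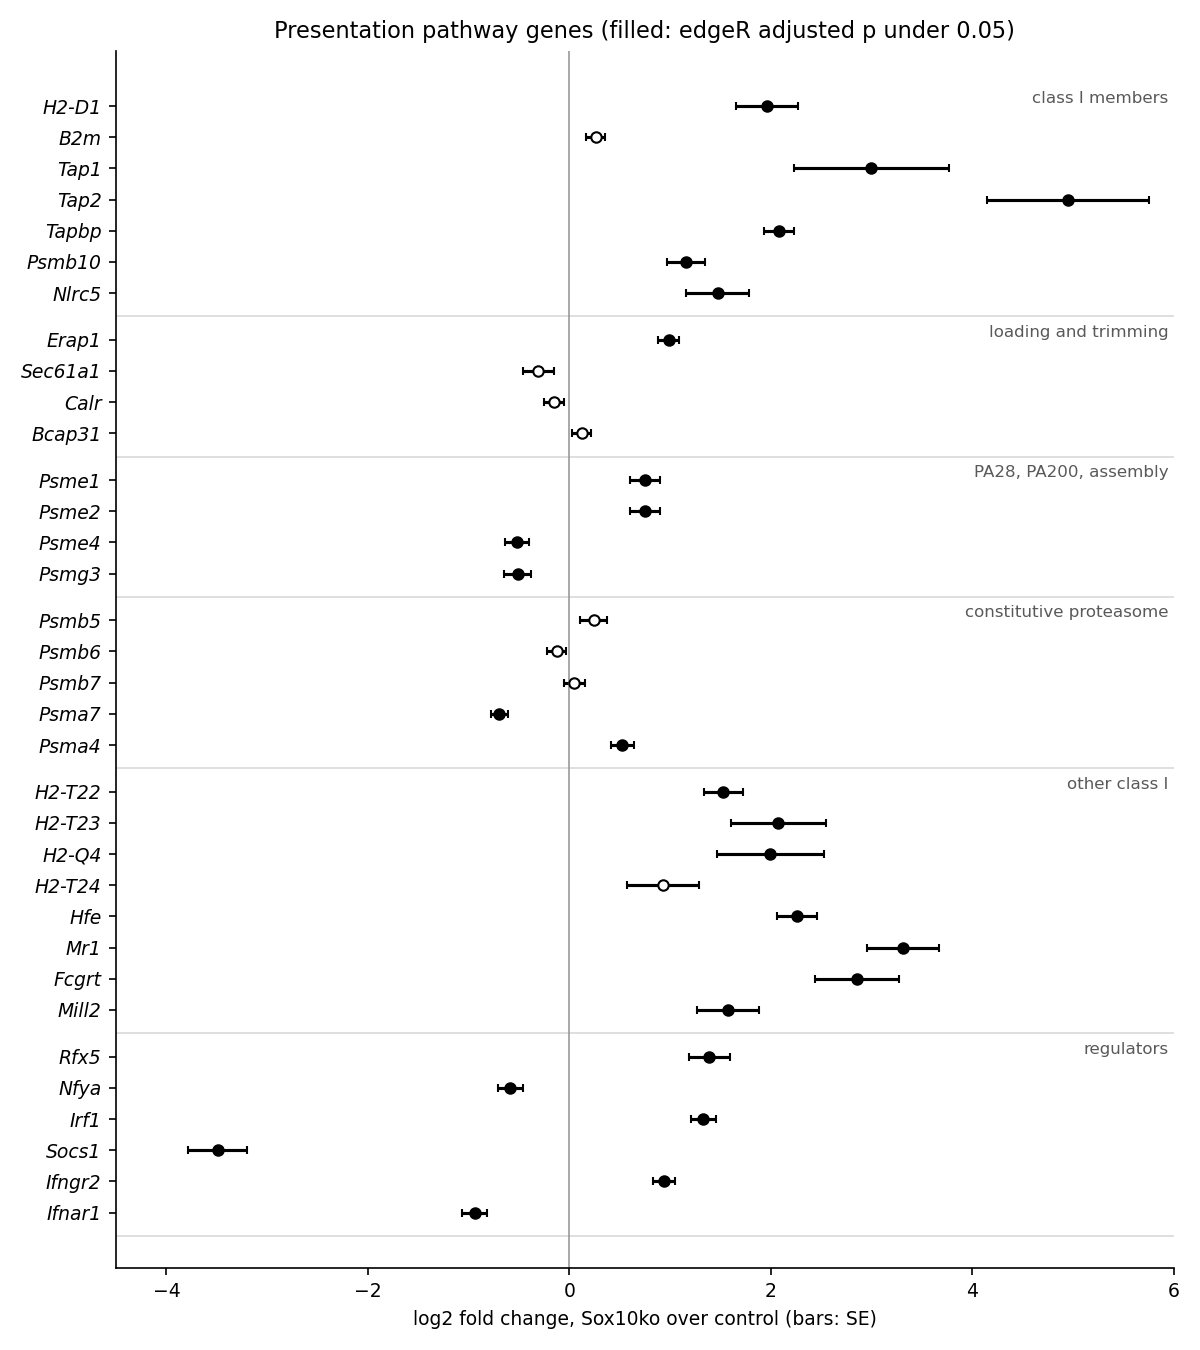
Log2 fold change of Sox10ko over control for the 7 tested genes of the 10 and for the named genes of the related lists, with bars for the SE; filled points passed the edgeR threshold. The 6 filled points of the class I genes lie to the right of 0 between 1.16 and 4.95. Of the constitutive proteasome genes, Psma7 (-0.69) and Psma4 (0.53) are filled, and Psmb5, Psmb6 and Psmb7 are not.

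The lists of regulators upstream of class I genes held genes that rose and genes that fell. Of 8 genes for the partners of NLRC5 at class I promoters and for NF-Y, 1 rose and 2 fell. Over all tested genes 17.3% rose and 14.7% fell. Rfx5, the DNA-binding subunit of the RFX complex, stood at 5.53, 9.20 and 7.18 CPM in control and at 19.5, 20.5 and 17.4 CPM in Sox10ko, and rose 2.62-fold (edgeR adjusted p = 0.00255). Nfya, which encodes a subunit of the CCAAT-binding factor, fell 1.5-fold (edgeR adjusted p = 0.0110). Creb1 fell 1.33-fold (edgeR adjusted p = 0.0225), and its call was lost without control replicate 1 (0.0666) or 3 (0.0784) or Sox10ko replicate 1 (0.0548).

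Interferon signalling genes held 17 tested genes, of which 7 rose and 3 fell (median log2 fold change 0.32). Irf1, an interferon-induced activator of class I genes, stood at 21.5, 26.2 and 21.5 CPM in control and at 63.3, 53.9 and 57.1 CPM in Sox10ko, and rose 2.52-fold (edgeR adjusted p = 0.000398). Ifngr2, a chain of the interferon gamma receptor, rose 1.92-fold (edgeR adjusted p = 0.00103), and Ifnar1, a chain of the type I receptor, fell 1.92-fold (edgeR adjusted p = 0.00146). Socs1, which encodes an inhibitor of JAK kinases and of interferon signalling, stood at 49.9, 30.6 and 59.7 CPM in control and at 3.33, 3.94 and 5.18 CPM in Sox10ko. Its groups were far apart, and it fell 11.3-fold (edgeR adjusted p = 0.000287). Of 9 interferon genes, 6 including Ifng had no read in any library, and the highest had 9 reads in all 6 libraries together.

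Leukocyte markers were examined because leukocytes are rich in class I RNA. Itgam, Cd3e and Tyrobp had no read in any library, and Ptprc, which encodes CD45, had 3 reads over the control libraries against 30 over the Sox10ko libraries. Of the 14 markers, 4 were tested, 2 rose (Lyz2, 12.7-fold, edgeR adjusted p = 0.000234, and Cd68, 3.47-fold, edgeR adjusted p = 0.00650) and 0 fell. The summed level was 29.1 to 32.9 CPM in control and 72.2, 21.2 and 38.0 CPM in the Sox10ko libraries. Laptm5, a lysosomal membrane protein gene of blood cells, made up 24.7, 22.8 and 22.3 CPM of it in control and 52.4, 0.915 and 10.2 CPM in Sox10ko (edgeR adjusted p = 0.933). The Sox10ko libraries had the order of Laptm5 for Cd68, Nlrc5, Tapbp, Mr1 and Fcgrt and another order for H2-D1, Tap1, Tap2 and Psmb10. Lyz2, at 7.37, 10.5 and 14.1 CPM in the Sox10ko libraries, had the order of H2-D1, Tap1 and Tap2. Ptprc, at 0.0300, 0.469 and 0.224 CPM there, had the order of Psmb10. The part of leukocyte RNA in these results was not tested. Sums over 6 endothelial markers were 2.13 to 2.39 CPM in control and 0.390 to 0.728 CPM in Sox10ko.

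Of the 10 genes, 7 lie on chromosome 17 (all but B2m on chromosome 2 and Psmb10 and Nlrc5 on chromosome 8), and that chromosome as a whole was slightly shifted. Of its 721 tested genes 22.1% rose, with a median log2 fold change of 0.15. Between Tapbp and H2-D1 (chr17:33915899-35267499) 64 genes were tested, 12 rose and 3 fell. Without the class I and class II genes, 58 remained, of which 7 rose (12.1%) and 3 fell, with a median of 0.13. With the chromosome medians removed from each library, an alternative chosen after seeing the data, the same 6 of the 10 genes passed, among them H2-D1 with a log2 fold change of 1.79, Tapbp with 1.95 and Tap1 with 2.82.

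**Figure D5:**
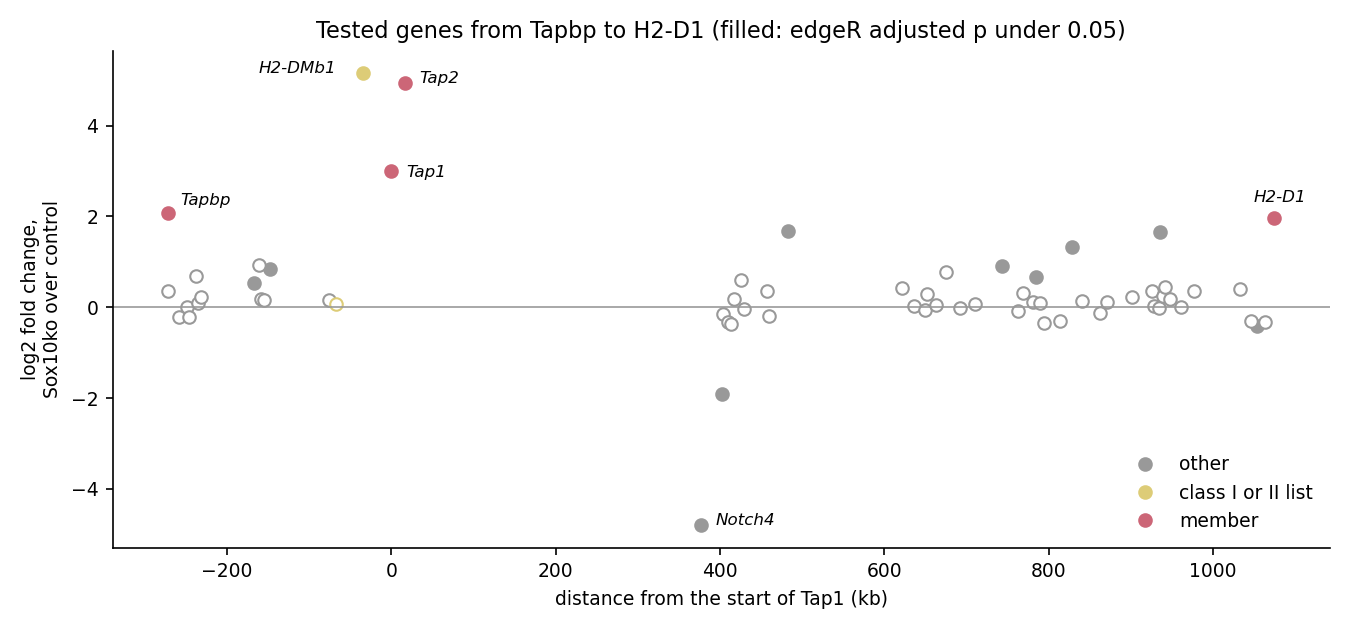
Log2 fold change of the 64 tested genes from Tapbp to H2-D1 by distance from the start of Tap1 in kilobases, with filled points for edgeR adjusted p under 0.05. Tapbp, Tap1, Tap2, H2-D1 and the class II gene H2-DMb1 stand above their neighbours, most of which lie near 0, and Notch4, at -4.80, is the lowest.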

How the data were processed

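RNA was measured in 3 control and 3 Sox10ko cultures, grouped by titles and genotype labels, with a stranded mRNA kit per the labels' protocols. The authors deposited whole read counts per gene. STAR 2.6.0c, HTSeq and DESeq2 with mm10 (GRCm38) are listed per the submitters' processing notes, and the strand setting of the counting is not given in the sources used here. Symbols and positions came from GENCODE M21 for 54042 of 54109 IDs.

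Counts were filtered with filterByExpr (about 0.249 CPM in 3 libraries), scaled by TMM and tested with edgeR 4.0.16 (quasi-likelihood F test, two-sided, no covariate, Benjamini-Hochberg adjustment over 15427 genes, threshold 0.05) in R 4.3.3, which was tested on simulated data. Kilobases of exon count every base in any annotated exon of a gene once, over all its transcripts. Ratios of reads per kilobase of exon were compared by exact permutation. Folds are of mean CPM, or of the fitted log2 fold change with a library left out. With 1 to 3 reads in control, pooled ratios have exact intervals for counting error only. These treat reads as independent, yet the reads carry no molecular identifiers and are not independent molecules. They also leave out the spread between cultures, so they may be too narrow. Replicates differed beyond sampling noise (chi-square per degree of freedom 27.1 to 92.2).

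The genes, the 16 lists beside them (178 of 181 symbols matched) and the tests were chosen with earlier results of these data known. Named were the 10 genes, Sox10, Psmb5, Psmb6, Psmb7, Irf1, Rfx5, in each list the 4 genes of lowest adjusted p at most and 2 at most that went the other way, genes without reads, and 5 genes of most alike pattern. Another gene of this rule is not reported here. H2-M3, Ptprc, Gm19412, Zbtb22, Dcn, Lum, Thy1, H2-T10 and Notch4 were named after their values were seen. Alternatives were DESeq2 size factors, library size alone, no filter, genes averaging 5 CPM or more, DESeq2 1.42.0, voom of limma 3.58.1, a replicate block, each library left out, and chromosome medians removed, the last added after seeing the data.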

Additional observations from a re-analysis of the deposited data

How the results depend on the processing

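The number of genes that changed was 4939, and 2869 to 4681 with 1 library left out, the lowest without control replicate 3. The cause was not tested. Of the 10 genes, 6 passed, 4 to 6 with 1 library left out, and 5 to 7 under the other alternatives. H2-D1, Tap2, Tapbp and Psmb10 kept their call under every alternative that was run for them (13 for Tap2, 14 for the others), with log2 fold changes from 1.52 to 2.14, 4.15 to 5.39, 1.95 to 2.19 and 1.01 to 1.27. The log2 ratio of Psmb10 to Psmb7 differed by 0.93 to 1.25 with 1 library left out. Over 70 genes, 968 fold changes under alternatives included 883 with the same call, 73 that lost it, 12 that gained it and 0 that turned direction. With the replicate number as a block, 3537 genes and 5 of the 10 passed, and Tap1 was lost (edgeR adjusted p = 0.0652). For the Psmb10 ratio the block gave an exact permutation p of 0.25, the smallest that 3 blocks allow. Same-numbered libraries did not deviate together (correlations -0.214, -0.0997 and 0.0739), so the numbers were not taken as pairs. Genes that did not reach about 0.249 CPM in 3 libraries, among them H2-K1, Psmb8 and Psmb9, were too shallow to test. The p-values set the difference between the groups against the spread between these cultures, and do not reach to other cultures or clones.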

Other observations

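Genes of the MHC class II pathway, which presents peptides taken up from outside the cell, were mostly near 0. Of 13, 5 were tested, 3 rose and 0 fell. Cd74 and H2-DMb1 passed the filter on low counts only through the Sox10ko libraries. Ciita passed it through libraries of both groups and did not reach about 0.249 CPM in every control library. Cd74, the invariant chain, stood at 0, 0.0769 and 0.0488 CPM in control and at 0.989, 0.423 and 1.30 CPM in Sox10ko (21.5-fold, edgeR adjusted p = 0.00522, or 31.1-fold without control replicate 2). H2-DMb1, a chain of the peptide exchange factor, stood at 0.380, 0.128 and 0.244 CPM in control and at 1.83, 18.1 and 6.93 CPM in Sox10ko (35.8-fold, edgeR adjusted p = 0.00540, or 17.3-fold without Sox10ko replicate 2). Ifi30, a lysosomal reductase, rose 1.58-fold (edgeR adjusted p = 0.0423), and the call was lost without control replicate 1 (0.136) or 3 (0.129) or Sox10ko replicate 1 (0.104) or 2 (0.0591). Ciita, the class II transactivator, stood at 0.262 ± 0.173 and 0.420 ± 0.195 CPM (edgeR adjusted p = 0.409).

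Of 7 NF-kappaB genes, 2 rose and 1 fell, where 17.3% of all tested genes rose and 14.7% fell. Tnfaip3, an inhibitor that the pathway itself induces, rose 2.33-fold from 7.19 ± 1.59 to 16.8 ± 2.40 CPM (edgeR adjusted p = 0.00449). Relb rose 1.64-fold (edgeR adjusted p = 0.0183, but 0.0554 without control replicate 1 and 0.0876 without control replicate 3), and Nfkb2 fell 1.29-fold (edgeR adjusted p = 0.0156, but 0.0603 without control replicate 3). Of 5 Polycomb genes, whose complex places the repressive mark H3K27me3, 1 rose and 3 fell. Ezh2, the main catalytic subunit, fell 1.95-fold from 169 ± 7.78 to 86.7 ± 22.2 CPM (edgeR adjusted p = 0.00685), and Ezh1, its paralog, rose 1.64-fold from 16.5 ± 1.44 to 27.1 ± 2.35 CPM (edgeR adjusted p = 0.00522). Suz12 (1.23-fold lower, edgeR adjusted p = 0.0352) lost its call when any of the 6 libraries was left out (0.0517 to 0.102), and Jarid2 (1.47-fold lower, edgeR adjusted p = 0.0387) when any but Sox10ko replicate 3 was (0.0671 to 0.121).

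Outside the lists, the genes whose log2 CPM over the 6 libraries was most like the mean standardised profile of the 7 tested class I genes were Carns1, Serpinb9, Tesk2, Shq1 and Ahnak, with Pearson r between 0.996 and 0.997. They were picked as the highest of 9740 genes, and the step between the groups makes up much of each profile, so r is given as a description. Serpinb9, which encodes an inhibitor of granzyme B, stood at 9.82, 6.51 and 9.08 CPM in control and at 30.5, 34.5 and 53.1 CPM in Sox10ko, with Sox10ko replicate 3 the highest as for H2-D1.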
